A study of Mus musculus with 49 samples.

Results

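The genes examined here encode the proteins of synaptic vesicles and of the machinery that fuses vesicles with membranes. They were all genes with a probe set annotated to a single symbol that began with Syt, Stx, Vamp, Rab3, Cplx, Rims, Unc13, Stxbp, Sv2 or Syngr, together with Syn1, Syn2, Syn3, Syp, Snap25, Snap23, Snap91, Napa, Napb and Nsf, and 71 of the 11807 genes named on the array met this rule. Where a gene had several probe sets, the brightest, by its mean of the 49 arrays, stood for the gene. The rule is one of names, so it also took in syntaxins, synaptotagmins and Rab proteins of other membranes, among them 7 Rab proteins that do not belong to the Rab3 family (Rab31, Rab32, Rab33a, Rab33b, Rab34, Rab37 and Rab38). Expression was measured on 49 Affymetrix HT-MG-430A arrays, each hybridized with 1 laser-captured layer of neurons (the pyramidal cells of CA1, those of CA3, or the granule cells of the dentate gyrus, DG) from 17 female mice aged 6.1 months. The rTg4510 mice carried 2 transgenes, the tetracycline-controlled transactivator (tTA) under the Camk2a promoter, which is active in forebrain excitatory neurons, and a tTA-responsive human tau with the P301L mutation. The tTA mice carried the transactivator alone and the double negative (DN) littermates carried neither. So rTg4510 against tTA asks about mutant tau and the insertion of its transgene, and tTA against DN asks about the transactivator and its insertion. No array came from mice with the tau transgene alone, so mutant tau and that insertion cannot be told apart. CA1 was profiled in 5 rTg4510, 5 tTA and 6 DN mice, CA3 in 6 rTg4510, 5 tTA and 5 DN mice, and DG in 6 rTg4510, 5 tTA and 6 DN mice. The numbers of the DN mice (mouse4797 to mouse4886) lay apart from those of the rTg4510 (mouse4535 to mouse4666) and tTA mice (mouse4570 to mouse4637), and no hybridization date was given in the sources used here.

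A vesicle fuses when a SNARE protein on its membrane (a VAMP) zips together with SNARE proteins of the target membrane (a syntaxin and SNAP25), a step that Sec1/Munc18 proteins guide and that Munc13 and RIM proteins prepare at the active zone. At synapses, synaptotagmin senses the calcium that enters with an action potential, complexins hold and then release the assembled complex, and synapsins tether the reserve of vesicles. After fusion, the ATPase NSF and its SNAP adaptors pull the spent SNARE complexes apart, and clathrin adaptors such as AP180 (Snap91) retrieve the membrane.

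Upstream sequences are shown for 4 members on which the results below turn, or whose regulation is a textbook case. RefSeq promoters (build GRCm38.p6, 250 bases before and 50 after each start) were found for 53 of the 71 members, and 6 motifs were searched on both strands. The cAMP response element, TGACGTCA, was found in 3 of the 53 (Napa, Stxbp3 and Syn1), against 2.03% of all 27025 genes with a promoter. The E-box CACGTG was found in 9 members, among them Napa and Nsf, against 8.09% of all genes. The left part of the RE1 site, TTCAGCACC, to which the repressor of neuronal genes REST binds as a longer motif, was found in Syn1 alone of the members, against 0.433% of all genes, and the GC box GGGCGG was found in 36 members, against 38.2%. A match is a description of letters and not a binding site. Each sequence below is written 5′ to 3′ on the strand of the gene, with the named motif in capitals, and no capitalised match overlapped another of the 6 motifs.
Syn1, minus strand, chrX:20921059-20921168, from 250 to 141 bases before the start, with the RE1 part and then the cAMP response element in capitals: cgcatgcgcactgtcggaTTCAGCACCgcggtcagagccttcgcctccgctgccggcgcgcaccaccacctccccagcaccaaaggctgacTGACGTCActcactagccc
Stxbp3, minus strand, chr3:108840503-108840612, the last 110 bases before the start, with the cAMP response element in capitals: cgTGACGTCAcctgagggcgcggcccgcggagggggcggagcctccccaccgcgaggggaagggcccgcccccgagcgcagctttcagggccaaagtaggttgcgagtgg
Napa, plus strand, chr7:16098390-16098579, the last 190 bases before the start, with 3 E-boxes in capitals: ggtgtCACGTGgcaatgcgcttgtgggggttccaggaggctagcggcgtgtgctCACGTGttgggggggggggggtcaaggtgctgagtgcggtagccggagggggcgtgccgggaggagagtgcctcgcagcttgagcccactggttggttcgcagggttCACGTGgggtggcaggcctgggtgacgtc
Nsf, minus strand, chr11:103954137-103954246, from 190 to 81 bases before the start, with 1 E-box in capitals: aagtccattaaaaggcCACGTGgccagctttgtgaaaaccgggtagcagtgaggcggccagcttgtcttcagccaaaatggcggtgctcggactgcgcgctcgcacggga

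Values are log2 expression values, so that 1 unit stands for a factor of 2, and the mouse was the replicate. A gene was called different between groups where limma's moderated test gave an adjusted p below 0.05 over all 22626 probe sets tested, and the share of all 11807 genes that met the same rule is given beside each count as the background. Of the members, 46 had a mean at or above the median level of the array, 5.04, and 25 lay below it. Differences of such dim probe sets tend to be understated, and no probe set's level can be set against that of another gene. In DN mice the mean of each layer's markers was highest in that layer. The mean of 3 CA1 pyramidal markers was 9.29 to 9.57 in CA1, against 5.13 to 5.68 in CA3 and 5.89 to 6.34 in DG. That of 3 CA3 pyramidal markers was 9.30 to 9.52 in CA3 and at most 7.12 in CA1 and 7.22 in DG. That of 5 dentate granule markers was 8.08 to 8.44 in DG and at most 6.44 in CA1 and 5.56 in CA3. Of these 5, 4 were called lower in CA3 than in DG and 1 was not called. In captured tissue, fewer cells of a type and less RNA per cell cannot be told apart.

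Between subfields of DN mice 21 to 32 members were called, the 32 between CA3 and DG. Much of the core release machinery was higher in CA3 than in DG: 24 members were higher (33.8% of members, against 11.6% of all genes) and 8 were lower (11.3%, against 10.7%), so that 32 were called where the background was 22.3%. Among the 46 members at or above the median level, 23 were higher in CA3 and 4 were lower. The share over all genes at that level is not given here, and the backgrounds above include dim genes. The median difference of all 71 members was 0.05, against 0.02 over all genes. Markers of cell types moved too, with 2 of 5 neuron and 2 of 6 oligodendrocyte markers higher in CA3 and 0 lower. Of 9 microglia and 7 astrocyte markers 2 and 1 were lower, and of 11 interneuron markers 2 were higher and 3 lower. The part of these cell types in the members' differences was not tested.

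Among the SNARE proteins, Snap25, the plasma membrane SNARE of neurons, read 13.52, 13.48, 13.47, 13.46 and 13.43 in CA3 of the 5 DN mice and 13.08 to 13.19 (median 13.16) in DG of the 6. The 2 sets of values did not overlap, and the difference was small but tight (0.33 ± 0.05, mean ± SE, 1.26 times higher, adjusted p = 1.87e-06). Stx1a, the syntaxin partner of SNAP25 at the terminal, averaged 6.73 ± 0.19 in CA3 and 4.62 ± 0.36 in DG (mean ± SD), 4.33 times higher in CA3. Vamp1 was 2.74 times and Vamp2, the main vesicle SNARE of forebrain, 1.33 times higher in CA3, and Stx17, a syntaxin of autophagosomes, was 1.59 times higher. Of the 20 SNARE members measured, 5 were higher in CA3, 2 were lower (Stx2 and Stx6, the second a syntaxin of the trans-Golgi network and endosomes), and 13 did not pass.

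Proteins of the vesicle membrane and the synapsins went the same way, with 6 of 9 higher and 1 lower in CA3. Syn2, a synapsin, read 10.26, 10.03, 9.999, 9.87 and 9.32 in CA3 of DN mice, against 7.66 to 9.12 (median 8.59) in DG. Every CA3 value was above every DG value, and the difference was 1.40 ± 0.22 (2.64 times, adjusted p = 2.28e-06), with the gene's other probe set at 1.59. Syn1 averaged 10.25 ± 0.07 in CA3 and 9.40 ± 0.12 in DG (1.81 times higher), whereas Syn3, which was dim in both, was lower in CA3 (−0.80 ± 0.15). The vesicle membrane proteins Syngr1 and Syngr3 were 2.57 and 1.81 times higher in CA3, and Sv2a, the target of levetiracetam, was 1.46 times higher, a call lost in 6 of 22 alternative fits. Syp, synaptophysin, read 12.10, 12.07, 11.96, 11.88 and 11.84 in CA3 and 11.50 to 11.83 (median 11.61) in DG. Its 2 groups did not overlap, at a difference of 0.34 ± 0.10 (adjusted p = 0.0148) that was no longer called without DN mouse4866 or DN mouse4886.

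**Figure D1:**
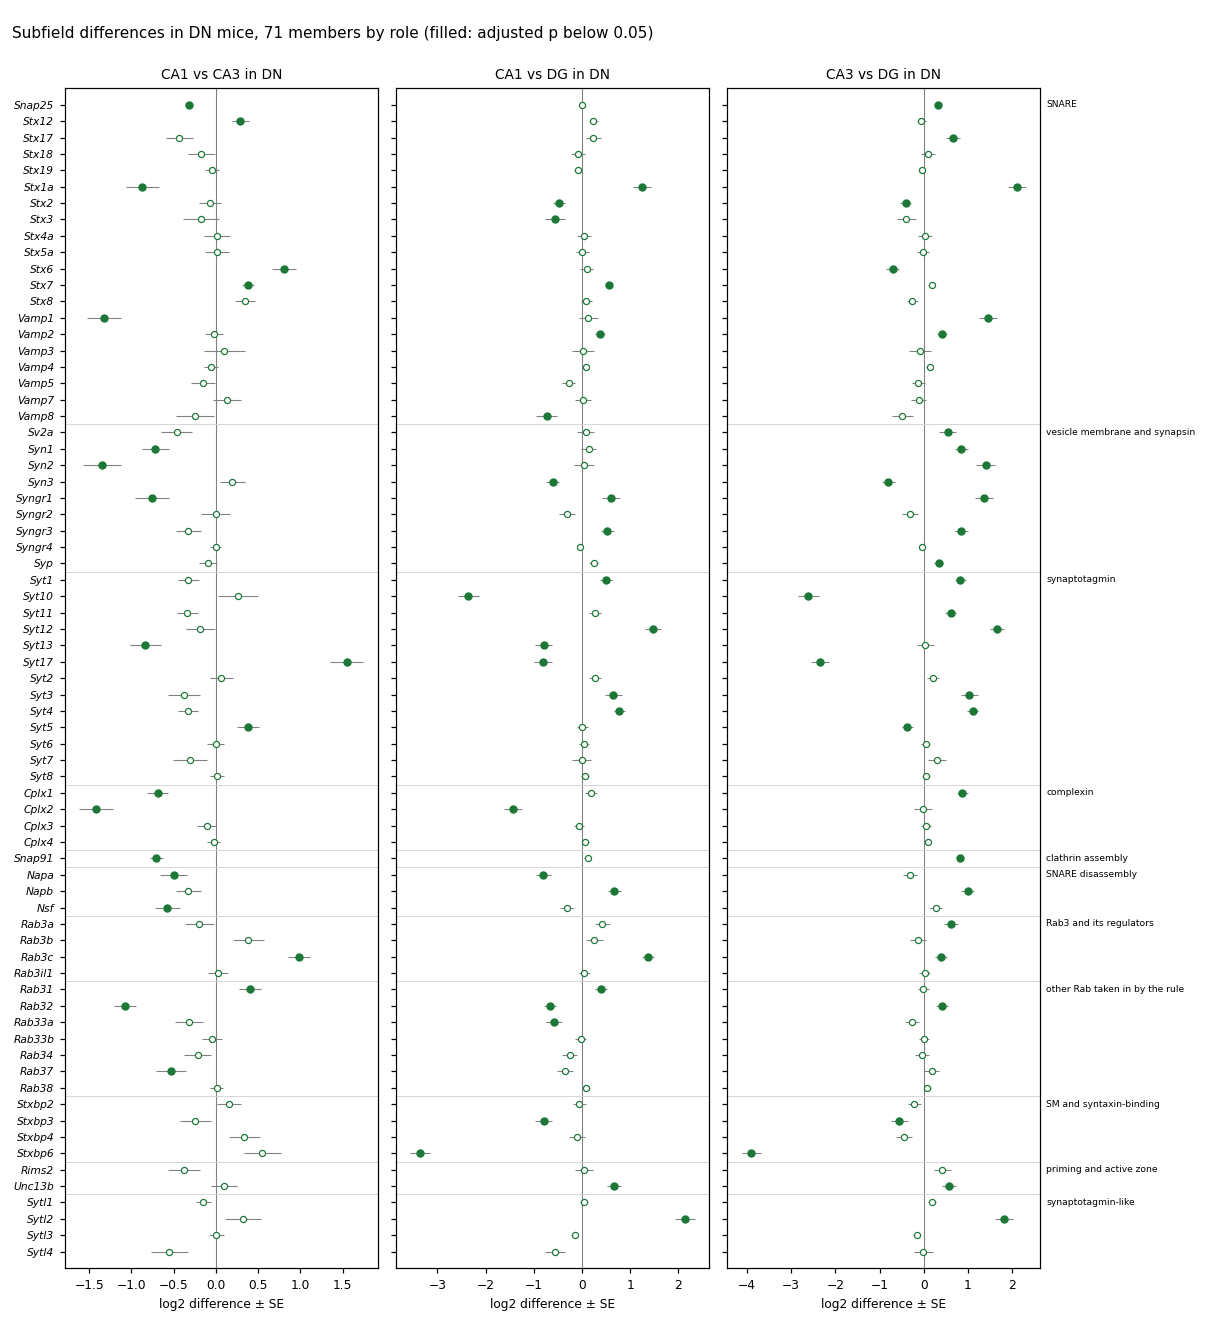
Log2 differences (± SE) between subfields of DN mice for the 71 members, grouped by role, with filled points where the adjusted p was below 0.05. In the comparison of CA3 with DG, 24 filled points lie to the right of 0 and 8 to the left, and the points farthest to the left are Stxbp6 (−3.90), Syt10 (−2.61) and Syt17 (−2.35).

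The regulators split. Syt1, the calcium sensor of fast release, averaged 11.996 ± 0.14 in CA3 and 11.18 ± 0.17 in DG (1.77 times higher, adjusted p = 1.02e-06), and Syt4, Syt12, Syt3 and Syt11 were 2.15, 3.16, 2.05 and 1.53 times higher in CA3. Cplx1 was 1.83 times higher in CA3, whereas Cplx2, the other complexin of forebrain, averaged 10.25 ± 0.25 in CA3 and 10.24 ± 0.50 in DG (adjusted p = 0.983). Snap91, the clathrin assembly protein AP180, was 1.77 times and Rab3a, the vesicle GTPase, 1.53 times higher in CA3. Napb, the brain SNAP adaptor of NSF, was 2 times higher, while Nsf (0.27) and Napa (−0.30) did not pass the test. Unc13b, a Munc13 priming factor, was 1.49 times higher in CA3, and Rims2, the RIM measured here, did not pass.

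Stxbp6, Syt10 and Syt17, the 3 members of largest difference, ran the other way and were high in DG. Stxbp6, amisyn, which binds SNARE proteins through a VAMP-like coil, read 4.82, 4.63, 4.31, 4.31 and 3.68 in CA3 of DN mice, against 8.01 to 8.54 (median 8.26) in DG. Syt10, which in mouse olfactory bulb neurons serves as the calcium sensor for IGF-1 secretion, read 4.20, 4.18, 3.92, 3.80 and 3.75 in CA3 and 6.19 to 6.92 (median 6.62) in DG. Syt17, a synaptotagmin relative without a transmembrane stretch, read 4.82, 4.78, 4.06, 3.96 and 3.71 in CA3 and 6.21 to 7.12 (median 6.58) in DG. For all 3 the groups were separated by over 1 log2 unit. Stxbp6 was 15 times lower in CA3 (−3.90 ± 0.22, adjusted p = 8.66e-19), Syt10 was 6.12 times lower (−2.61 ± 0.24, adjusted p = 2.86e-12) and Syt17 was 5.1 times lower (−2.35 ± 0.20, adjusted p = 2.55e-13). The means of all 3 in CA3 lay below 5.04, so these folds may be understated.

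CA1 of DN mice lay below CA3 for much of the same machinery. In CA1 against CA3, 7 members were higher (background 6.73%) and 14 were lower (background 7.08%), 21 in all at a background of 13.8%. Cplx2 read 8.48 to 9.40 (median 8.74) in CA1, against 10.64, 10.30, 10.21, 10.13 and 9.96 in CA3, and Syn2 read 7.92 to 9.03 (median 8.65) in CA1, against the CA3 values given above. Neither gene had overlapping groups, at −1.42 ± 0.20 for Cplx2 (adjusted p = 4.95e-07) and −1.35 ± 0.22 for Syn2 (adjusted p = 7.57e-06). Vamp1 was 2.5 times, Stx1a 1.83 times, Syngr1 1.69 times, Syn1 1.64 times, Snap91 1.63 times, Cplx1 1.61 times and Nsf 1.49 times lower in CA1. Snap25 read 13.10 to 13.22 (median 13.14) in CA1 and was 1.25 times lower there, and Syt13 was 1.79 times lower. Rab32, a Rab of lysosome-related organelles, was 2.11 times lower at a dim level. Syt17 was the largest rise, with 5.49 to 6.24 (median 5.80) in CA1, against 4.82, 4.78, 4.06, 3.96 and 3.71 in CA3 (1.55 ± 0.20, adjusted p = 3.54e-08), and Rab3c, a Rab3 of synaptic vesicles, averaged 9.52 ± 0.13 in CA1 and 8.53 ± 0.11 in CA3 (1.98 times higher). Stx6, an endosomal and Golgi syntaxin, was 1.75 times higher in CA1. The other called members were Stx7, Stx12, Rab31 and Syt5 (higher) and Napa and Rab37 (lower), with differences between −0.53 and 0.41. Of 6 oligodendrocyte markers 4 were lower in CA1 than in CA3, and of 5 neuron markers 1 was higher and 1 lower. Their part in the members' differences was not tested.

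Between CA1 and DG of DN mice, 14 members were higher in CA1 (background 9.44%) and 13 were lower (background 8.96%), 27 in all at a background of 18.4%. Stxbp6 read 3.46 to 5.62 (median 5.10) in CA1, against the 8.01 to 8.54 of DG, and Syt10 read 3.45 to 4.71 (median 4.28) in CA1, against 6.19 to 6.92 in DG. Every CA1 array lay below every DG array for both, with differences of −3.35 ± 0.21 for Stxbp6 (adjusted p = 2.85e-17) and −2.36 ± 0.22 for Syt10 (adjusted p = 1.5e-11), and the lowest CA1 array for both was that of DN mouse4866. Sytl2, a Rab27 effector of the synaptotagmin-like family, read 6.03 to 6.54 (median 6.28) in CA1, against 3.76 to 4.43 (median 4.20) in DG (2.14 ± 0.20, 4.4 times higher, adjusted p = 9.96e-12). In CA3 of DN mice Sytl2 read 6.51, 6.12, 5.94, 5.80 and 5.50, so that it was high in both pyramidal layers and low in granule cells. Cplx2 was 2.69 times lower in CA1 than in DG, and Stxbp3, Napa and Syt13 were each 1.74 times lower. Rab3c, Syt12, Stx1a and Syt4 were 2.59, 2.78, 2.37 and 1.71 times higher in CA1, and Napb, Unc13b and Syt3 were 1.57 to 1.59 times higher. Syt17 was lower in CA1 than in DG (−0.80 ± 0.19), so its order over the DN layers was DG, CA1 and CA3, with each step called. Syn2 averaged 8.52 ± 0.42 in CA1 and 8.47 ± 0.60 in DG, which did not pass (adjusted p = 0.932).

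**Figure D2:**
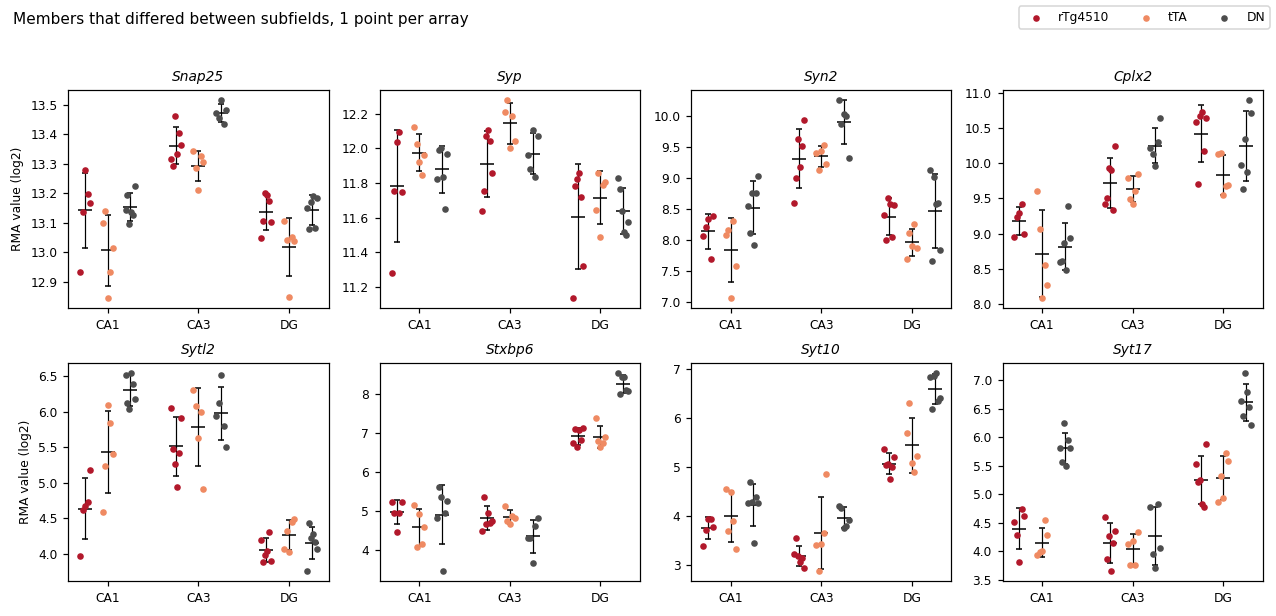
RMA values (log2) of 8 members in every array, by subfield and by genotype (rTg4510, tTA and DN from left to right), with the mean and SD as bars. In DN mice Stxbp6 and Syt10 are high in DG alone, Sytl2 is low in DG, Syn2 is highest in CA3 and Cplx2 is lowest in CA1.

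Vesicle genes outside the naming rule were listed separately, as proteins of vesicle loading, of the active zone and of vesicle endocytosis, and 54 of the 73 were measured. In CA3 against DG of DN mice, 29 of the 54 were higher (background 11.6%) and 3 were lower (background 10.7%), namely Cadps2, Rab27b and Sh3gl1, with a median difference of 0.41, against 0.02 over all genes. By kind, 9 of 14 loading genes, 12 of 21 active zone genes and 8 of 19 endocytosis genes were higher in CA3, among them the active zone scaffolds Pclo (1.53) and Bsn (0.89), endophilin Sh3gl2 (1.44) and dynamin Dnm1 (1.05). In CA1 against CA3, 27 of the 54 were lower (background 7.08%) and 3 were higher (background 6.73%), with a median of −0.33, against −0.02 over all genes. The list was described by these counts, without a test of the list as a whole.

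Between tTA and DN mice, 22.5% of members were called in CA1, 8.45% in CA3 and 21.1% in DG, at backgrounds of 16.5%, 9% and 17.5%. In the transactivator mice, the core genes that fell were Syt1, Nsf, Napa and Napb, with Cplx2 in CA3, while Stx1a rose in DG. Syt1 was the only calcium sensor among them, so its fall does not stand for calcium sensing in general. Most calls of these core genes were lost with a covariate, the difference between the 3-prime and 5-prime probe sets of Actb. That difference itself went with genotype, so the covariate and the genotype cannot be fully told apart. What it measures in these arrays was not tested. Syt1 fell in tTA mice in each of the 3 subfields. In CA1 it read 11.17, 11.10, 11.04, 11.03 and 10.82 in tTA mice, against 11.42 to 11.83 (median 11.73) in DN mice. In CA3 the values were 11.71, 11.70, 11.43, 11.36 and 11.27 in tTA mice and 12.11, 12.07, 12.06, 11.97 and 11.77 in DN mice, and in DG they were 10.87, 10.82, 10.79, 10.72 and 10.46 in tTA mice and 10.95 to 11.40 (median 11.20) in DN mice. The 2 genotypes did not overlap in any layer, and the differences were −0.64 ± 0.14 in CA1 (adjusted p = 0.00566), −0.50 ± 0.14 in CA3 (adjusted p = 0.0298) and −0.44 ± 0.14 in DG (adjusted p = 0.0324). The gene's second probe set was called as well in all 3 layers, at −0.97, −0.81 and −0.79. With the Actb covariate Syt1 was not called in CA1 (−0.49, adjusted p = 0.148), CA3 (−0.38, adjusted p = 0.138) or DG (−0.30, adjusted p = 0.378). Its call was also lost in CA3 without DN mouse4797, mouse4825 or mouse4866 or tTA mouse4570, mouse4592 or mouse4637, and in DG with the test on anti-log values and without DN mouse4797, mouse4825 or mouse4883 or tTA mouse4592 or mouse4637. In CA1, CA3 and DG of rTg4510 mice Syt1 averaged 11.30 ± 0.36, 11.56 ± 0.28 and 10.98 ± 0.32, and neither rTg4510 against tTA nor rTg4510 against DN passed for it in any layer.

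All 3 genes that take SNARE complexes apart fell in DG of tTA mice, and 2 of them fell in CA1. Over all genes, 9.49% fell in DG and 8.52% in CA1, and these 3 were named out of 71 members. Napa, the alpha-SNAP adaptor, read 6.52, 6.44, 6.36, 6.34 and 5.45 in DG of tTA mice, against 7.02 to 7.48 (median 7.37) in DN mice. Nsf, the ATPase, read 9.89, 9.76, 9.71, 9.61 and 9.34 in tTA mice, against 10.01 to 10.22 (median 10.17) in DN mice, and Napb, beta-SNAP, read 6.98, 6.78, 6.58, 6.32 and 6.13 in tTA mice, against 6.98 to 7.23 (median 7.17) in DN mice. No tTA value reached the lowest DN value for any of the 3 (for Napb the highest tTA value was 6.976 and the lowest DN value 6.978), and the differences were −1.10 ± 0.16 (Napa, 2.15 times, adjusted p = 0.000164), −0.48 ± 0.10 (Nsf, adjusted p = 0.00317) and −0.58 ± 0.14 (Napb, adjusted p = 0.0093). In CA1 Napa (−0.72 ± 0.17, adjusted p = 0.00844) and Nsf (−0.60 ± 0.17, adjusted p = 0.022) fell, and Napb (−0.29) did not pass. In CA3 none passed, at −0.63 for Nsf (adjusted p = 0.0622), −0.34 for Napa and −0.27 for Napb. The second probe set of Nsf was called in CA1 (−0.74) and DG (−0.49), whereas those of Napa (0.06 in CA1 and −0.22 in DG) and Napb (−0.35 in DG) were not. Napg, a SNAP adaptor outside the naming rule, fell by 0.53, 0.53 and 0.64 on the log2 scale in CA1, CA3 and DG. With the Actb covariate, Napa was still called in DG (−1.13, adjusted p = 0.00546), but Nsf (−0.41, adjusted p = 0.0816) and Napb (−0.48, adjusted p = 0.157) were not, nor were Napa and Nsf in CA1, where the call of Nsf was lost without tTA mouse4592 as well. The lowest Napa value in DG of tTA mice, 5.45, was that of mouse4592, and without it the difference was −0.91 and still called.

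**Figure D3:**
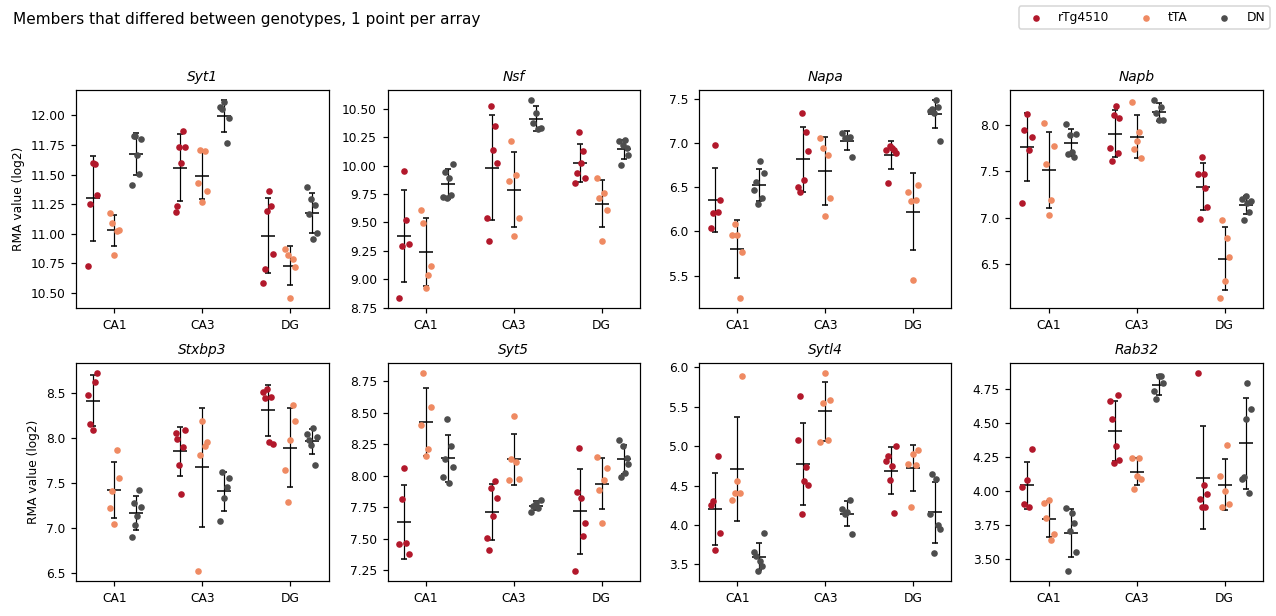
RMA values (log2) of 8 members in every array, by subfield and by genotype (rTg4510, tTA and DN from left to right), with the mean and SD as bars. Syt1 is lower in tTA than in DN mice in all 3 layers, Nsf, Napa and Napb are lower in DG of tTA mice, and Stxbp3 in CA1 is higher in rTg4510 than in tTA mice.

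In DG of tTA mice, 5 members rose (background 7.98%) and 10 fell (background 9.49%). The 15 in all were 21.1% of members at a background of 17.5%, near the share of all genes. Stxbp6, Syt10 and Syt17, which were high in DG of DN mice, were among those that fell. They were picked out as high in the same DN arrays that serve as the reference here, which favours a fall. Stx2, Stxbp3 and Syt5 were also higher in DG than in CA3 of DN mice and were not called in DG of tTA mice. Stxbp6 read 7.39, 6.91, 6.79, 6.74 and 6.65 in tTA mice, against 8.01 to 8.54 (median 8.26) in DN mice, and Syt17 read 5.73, 5.58, 5.33, 4.93 and 4.87 in tTA mice, against 6.21 to 7.12 (median 6.58) in DN mice. Syt10 read 6.30, 5.70, 5.22, 5.09 and 4.89 in tTA mice, against 6.19 to 6.92 (median 6.62) in DN mice. Groups were apart for Stxbp6 (−1.37 ± 0.14, adjusted p = 8.16e-06) and Syt17 (−1.32 ± 0.21, adjusted p = 0.000457), and 1 tTA array lay inside the DN values for Syt10 (−1.15 ± 0.21, adjusted p = 0.00137). The other members that fell were Syn3 (−0.86), Stx6 (−0.57) and Stxbp4 (−0.49), a syntaxin 4 binding protein. Those that rose were Vamp8, an endosomal and lysosomal SNARE (6.68 ± 0.55 in tTA and 5.73 ± 0.18 in DN mice, 1.94 times), Rab31, an endosomal Rab (1.81 times), Stx1a (1.75 times, adjusted p = 0.071 with the Actb covariate), Rab3b (0.56) and Sytl4, granuphilin (0.56), whose call was lost in 18 of 23 alternative fits. With the Actb covariate, limma did not call Vamp8 (adjusted p = 0.0617) or Stx6 (adjusted p = 0.131) either. The calls of Rab3b and Stxbp4 were lost in 10 and 7 of 23 alternative fits.

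In CA1 of tTA mice, 7 members rose (background 7.94%) and 9 fell (background 8.52%). The 16 in all were 22.5% of members at a background of 16.5%, somewhat above the share of all genes. Syt17 fell most, with 4.55, 4.28, 4.01, 3.99 and 3.94 in tTA mice, against 5.49 to 6.24 (median 5.80) in DN mice (−1.65 ± 0.17, 3.15 times lower, adjusted p = 2.77e-05). Sytl4, a Rab27 effector of dense-core granules, read 5.89, 4.56, 4.41, 4.41 and 4.31 in tTA mice, against 3.41 to 3.89 (median 3.58) in DN mice (1.12 ± 0.25, adjusted p = 0.0075), a difference that included 1 array at 5.89 (mouse4637). Sytl2 read 6.09, 5.84, 5.40, 5.23 and 4.60 in tTA mice and 6.03 to 6.54 (median 6.28) in DN mice, with 1 tTA array inside the DN values (−0.86 ± 0.23, adjusted p = 0.0203). With the Actb covariate neither Sytl4 (adjusted p = 0.177) nor Sytl2 (adjusted p = 0.202) was called in CA1, and Sytl4 was not called with the test on anti-log values. Besides Syt1, Nsf and Napa, the others that fell were the priming factor Unc13b (−0.86 ± 0.16), Stx6 (−0.66 ± 0.12), Rab3c (−0.61 ± 0.13) and Syt4 (−0.58 ± 0.14), and the others that rose were the late endosomal SNARE Vamp7 (0.58 ± 0.12), Vamp8 (0.84 ± 0.28), Rab3b (0.73 ± 0.24), Stx4a, a plasma membrane syntaxin of many cell types (0.50 ± 0.16), and Rab31 and Syn3 (below 0.50). The calls of Rab3b, Stx4a, Syn3 and Vamp8 were each lost in 10 to 15 alternative fits.

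CA3 of tTA mice had the fewest calls of the 3 subfields, with 3 members that rose (background 4.41%) and 3 that fell (background 4.59%), 6 in all at a background of 9%, near the share of all genes. Sytl4 read 5.93, 5.59, 5.54, 5.08 and 5.06 in tTA mice, against 4.32, 4.20, 4.17, 4.14 and 3.89 in DN mice, and Rab32 read 4.25, 4.25, 4.11, 4.09 and 4.02 in tTA mice, against 4.85, 4.84, 4.79, 4.74 and 4.68 in DN mice. Syngr2, a synaptogyrin found in many tissues, read 5.33, 5.13, 5.12, 4.82 and 3.90 in tTA mice, against 4.27, 4.15, 4.12, 4.02 and 3.96 in DN mice. Groups were apart for Sytl4 (1.30 ± 0.23, adjusted p = 0.00267) and Rab32 (−0.64 ± 0.10, adjusted p = 0.00153), both dim in DN mice, and overlapped for Syngr2 (0.76 ± 0.20, adjusted p = 0.0296), whose call was lost in 10 of 22 alternative fits. Cplx2 was the remaining member that fell (−0.62 ± 0.17, adjusted p = 0.0294), at 9.85, 9.79, 9.61, 9.49 and 9.43 in tTA mice and 10.64, 10.30, 10.21, 10.13 and 9.96 in DN mice, and Rab3b the remaining one that rose (0.45 ± 0.13). The call of Cplx2 was lost in 7 of 23 alternative fits (the methods' test on log2 values, the Actb covariate, and without DN mouse4797, mouse4883 or mouse4886 or tTA mouse4580 or mouse4592), and that of Rab3b in 11 of 22. Of Sytl4, the other probe set was not called in any subfield (0.17, 0.10 and −0.02 in CA1, CA3 and DG).

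**Figure D4:**
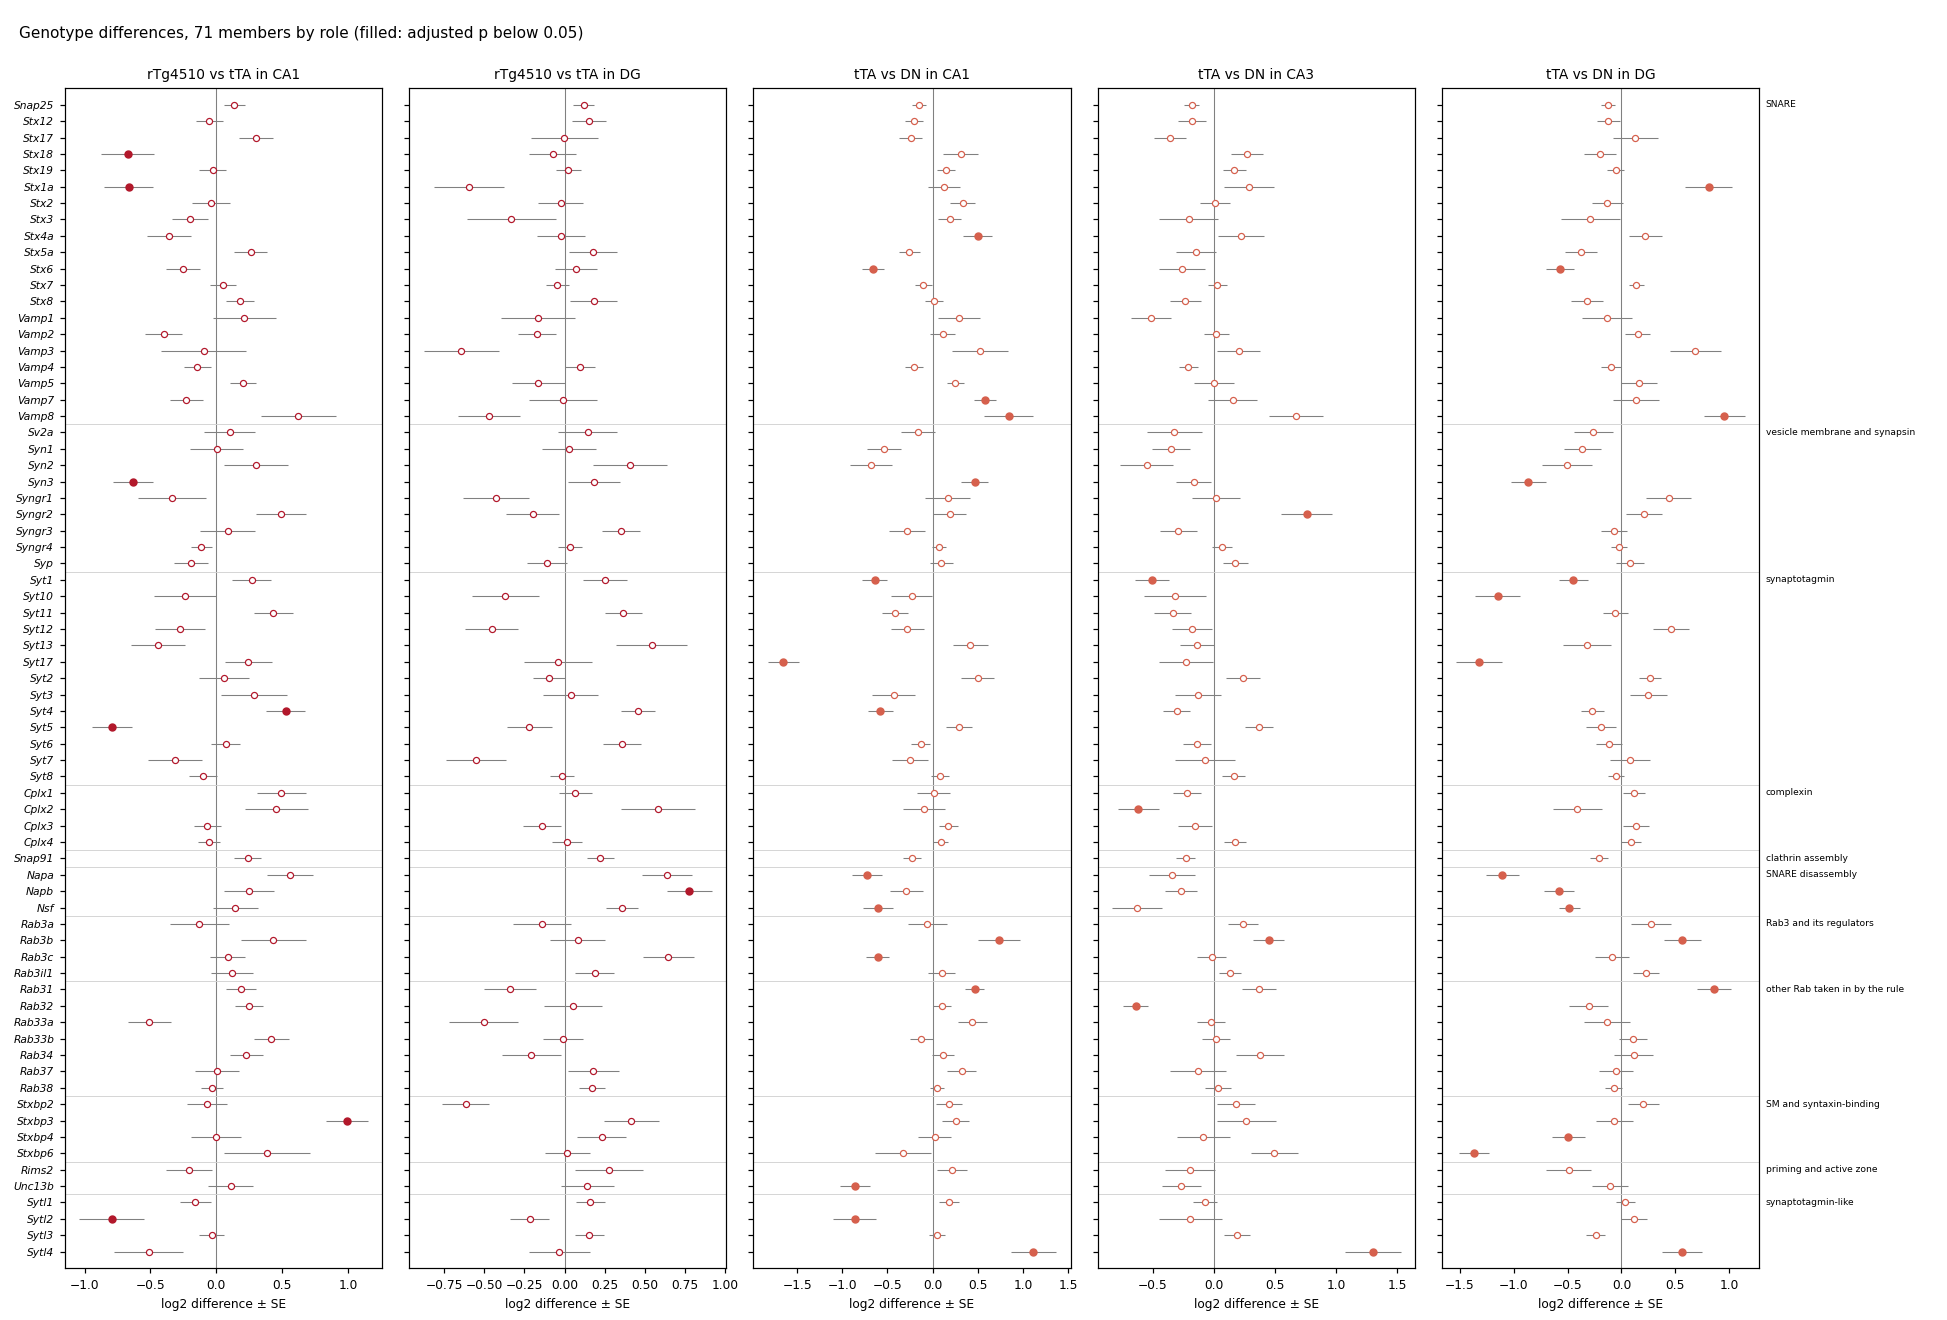
Log2 differences (± SE) of the 71 members by role for rTg4510 against tTA in CA1 and DG and for tTA against DN in CA1, CA3 and DG, with filled points where the adjusted p was below 0.05. Syt1 is filled and left of 0 in all 3 panels of tTA against DN, and rTg4510 against tTA in CA3, with 0 members called, is not drawn.

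Other values moved with the comparison of tTA and DN mice. The 9 microglia markers averaged 6.50 to 7.31 in DG arrays of tTA mice and 5.13 to 5.71 in DG arrays of DN mice, with 7 of the 9 higher, and 6 of 7 astrocyte markers were higher as well (9.13 to 9.91 in tTA and 7.99 to 8.82 in DN mice). In CA1 3 of 9 microglia and 4 of 7 astrocyte markers were higher in tTA mice, and in CA3 7 of 9 and 5 of 7. The 5 neuron markers in DG overlapped between tTA (10.09 to 10.54) and DN mice (10.24 to 10.52), with 0 called. Of 5 dentate granule markers in DG, 2 were lower and 1 was higher in tTA mice, with means of 7.43 to 8.07 in tTA and 8.08 to 8.44 in DN arrays. In CA3 of tTA mice 2 of 3 CA3 pyramidal markers were lower (8.70 to 9.22 in tTA and 9.30 to 9.52 in DN arrays), and in CA1 1 of 5 neuron markers and 1 of 3 CA1 pyramidal markers were lower. The Actb difference lay between −0.79 and −0.48 in DG arrays of tTA mice and between −0.51 and −0.09 in DN mice. In CA1 it lay between −0.92 and −0.47 in tTA and between −0.59 and −0.06 in DN mice. In CA3 it lay between −0.855 and −0.42 in tTA and between −0.58 and −0.17 in DN mice. So it went with genotype in each layer, though the values overlapped. With it as a covariate 7 members were called in DG, 4 in CA1 and 3 in CA3. The share of all genes called with this covariate is not given here, so the losses were not shown to be particular to the members. The part of the markers and of the Actb difference in the members' changes was not tested. Of the vesicle genes outside the rule, 11 of 54 fell in CA1 (background 8.52%), 9 in CA3 (background 4.59%) and 11 in DG (background 9.49%) of tTA mice, and 3, 1 and 3 rose (backgrounds 7.94%, 4.41% and 7.98%). Dnm1 (−1.20, −0.96 and −0.73 in CA1, CA3 and DG) and Sh3gl2 (−0.96, −0.71 and −0.59) fell in all 3 layers.

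Between rTg4510 and tTA mice, the comparison that bears on mutant tau, most of the vesicle machinery did not pass the test, and of the 8 calls 7 were in CA1. There 2 members rose (background 6.23%) and 5 fell (background 5.4%), 7 in all, or 9.86% of members at a background of 11.6%, so that the members' share was near that of all genes. The median difference of the 71 members in CA1 was 0.01, against −0.04 over all genes. Of the 16 core members measured, Stx1a alone was called in CA1 and Napb alone in DG. With the 2 genotypes fitted alone 2 members were called in CA1, and 4 were called without rTg4510 mouse4666 or without tTA mouse4580, mouse4592 or mouse4637.

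Stxbp3, the Sec1/Munc18 protein that partners syntaxin 4 in many cell types, rose most in CA1. It read 8.73, 8.63, 8.48, 8.15 and 8.09 in rTg4510 mice, against 7.87, 7.56, 7.41, 7.22 and 7.05 in tTA mice and 6.90 to 7.42 (median 7.18) in DN mice. No rTg4510 value overlapped the tTA values, and the gene was 1.99 times higher (0.99 ± 0.16, adjusted p = 0.00125), a call that held in all 23 alternative fits. In CA3 it averaged 7.85 ± 0.27 in rTg4510 and 7.68 ± 0.66 in tTA mice, with 1 tTA array at 6.52 (mouse4570), and in DG 8.31 ± 0.28 in rTg4510 and 7.90 ± 0.44 in tTA mice, and neither passed. The difference between the CA1 and CA3 responses was 0.80 ± 0.27 (adjusted p = 0.078), so the response was not shown to differ between subfields. Syt4, an activity-regulated synaptotagmin of dense-core vesicles, was the other member that rose (8.58 ± 0.14 in rTg4510 and 8.05 ± 0.39 in tTA mice, 0.53 ± 0.15, adjusted p = 0.0331), and its second probe set was not called (0.19).

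Among those that fell, Syt5, a synaptotagmin that binds calcium, read 8.06, 7.82, 7.47, 7.46 and 7.38 in CA1 of rTg4510 mice, against 8.82, 8.54, 8.41, 8.22 and 8.16 in tTA mice. Again the groups did not overlap (−0.79 ± 0.15, 1.73 times lower, adjusted p = 0.00368), and the call held in all 23 alternative fits. Sytl2 read 5.18, 4.74, 4.68, 4.61 and 3.98 in rTg4510 and 6.09, 5.84, 5.40, 5.23 and 4.60 in tTA mice, overlapping groups whose difference (−0.79 ± 0.24, adjusted p = 0.0479) was not called in 19 of 23 alternative fits. The remaining 3, all with overlapping groups, were Stx1a (5.33 ± 0.44 in rTg4510 and 5.99 ± 0.27 in tTA mice, −0.67 ± 0.19, adjusted p = 0.0325), Stx18, a SNARE of the endoplasmic reticulum (−0.67 ± 0.20, adjusted p = 0.0425), and the dim Syn3 (−0.63 ± 0.15, adjusted p = 0.015). The calls of Stx1a, Stx18 and Syt4 were lost in 11, 15 and 10 of 23 alternative fits, and that of Syn3 with the 2 genotypes fitted alone.

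In CA3, 0 of the 71 members were called for rTg4510 against tTA by limma, at a background of 1.16% (0.618% higher and 0.542% lower). The members lay between −0.67 (Sytl4) and 0.44 (Syt4). By limma's unadjusted p 8 were below 0.05, and the share of all genes at that looser threshold is not given here. In DG 1 rose and 0 fell, at a background of 0.796% (0.423% higher and 0.373% lower). The 1 was Napb, with 6.98 to 7.65 (median 7.40) in rTg4510 mice, against 6.98, 6.78, 6.58, 6.32 and 6.13 in tTA mice. All rTg4510 values lay above the tTA values, the lowest (6.981) just above the highest (6.976), and the DN values lay between 6.978 and 7.232. The difference was significant (0.78 ± 0.14, 1.72 times higher, adjusted p = 0.024), but the call was lost without rTg4510 mouse4535, without tTA mouse4637 and where the 2 genotypes were fitted alone, and the second probe set was not called (0.61, adjusted p = 0.137). Of the 9 microglia, 7 astrocyte and 5 dentate granule markers, 0 were called in DG between these genotypes. Napa (0.64, adjusted p = 0.0586) and Nsf (0.36, adjusted p = 0.091) did not pass in DG.

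Snap25 and Syp, widely used presynaptic markers, did not pass between rTg4510 and tTA mice in any subfield. In CA1 Snap25 read 13.28, 13.20, 13.17, 13.14 and 12.94 in rTg4510 and 13.14, 13.10, 13.02, 12.93 and 12.85 in tTA mice, and Syp read 12.09, 12.04, 11.76, 11.75 and 11.28 in rTg4510 and 12.12, 12.03, 11.96, 11.92 and 11.85 in tTA mice. The differences were 0.14 ± 0.08 for Snap25 (adjusted p = 0.316) and −0.19 ± 0.13 for Syp (adjusted p = 0.391), with 1 rTg4510 array below all the others for Syp. In CA3 they were 0.07 ± 0.06 and −0.23 ± 0.10, and in DG 0.12 ± 0.06 and −0.11 ± 0.13. In DG, Snap25 read 13.05 to 13.20 (median 13.14) in rTg4510 and 13.11, 13.05, 13.04, 13.04 and 12.85 in tTA mice, and Syp 11.13 to 11.86 (median 11.75) in rTg4510 and 11.86, 11.81, 11.79, 11.64 and 11.49 in tTA mice. The genotypes overlapped for both genes. In CA3 the values for Snap25 were 13.29 to 13.46 (median 13.35) in rTg4510 and 13.34, 13.33, 13.30, 13.29 and 13.21 in tTA mice, and those for Syp 11.64 to 12.11 (median 11.95) in rTg4510 and 12.28, 12.21, 12.19, 12.04 and 12.001 in tTA mice, again with overlap. Of the other core genes in CA1, Syn1 differed by 0.00, Syn2 by 0.30, Sv2a by 0.10, Rab3a by −0.13, Vamp1 by 0.21, Vamp2 by −0.40 (adjusted p = 0.0798), Cplx1 by 0.49, Cplx2 by 0.46, Snap91 by 0.24 and Napa by 0.56 (adjusted p = 0.052). A p above the threshold does not show that these levels were alike.

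**Figure D5:**
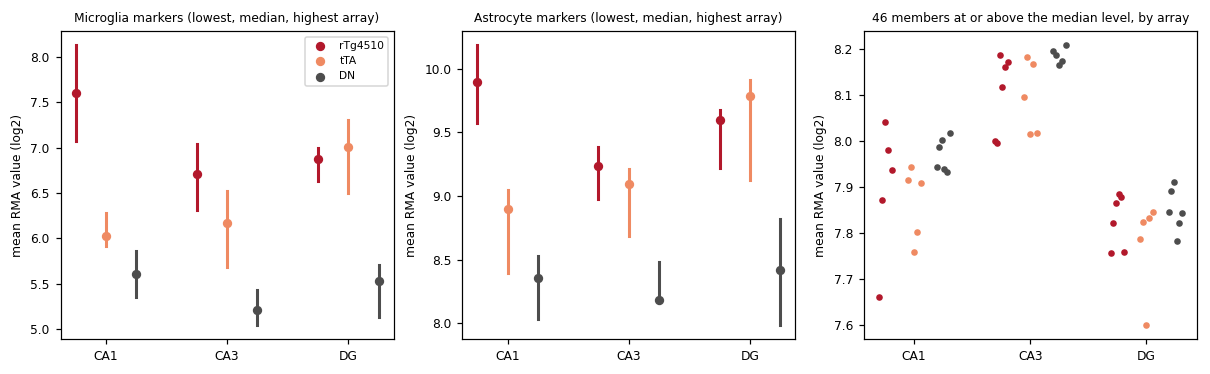
Mean RMA values (log2) of 9 microglia and 7 astrocyte markers (points at the median array, lines from the lowest to the highest array) and of the 46 members at or above the median level (1 point per array), by subfield and genotype. By the median array, the glial markers are highest in CA1 of rTg4510 mice, followed by DG of both transgenic groups, while the members' means overlap between genotypes in every subfield.

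In CA1, markers of the layer's own neurons and of other cell types moved between rTg4510 and tTA mice as well. The CA1 pyramidal markers fell (3 of 3, with means of 6.73 to 8.22 in rTg4510 arrays and 8.57 to 9.51 in tTA arrays), and 8 of 9 microglia markers (7.08 to 8.13 in rTg4510 and 5.92 to 6.28 in tTA arrays), 5 of 7 astrocyte markers, 3 of 6 oligodendrocyte markers and 7 of 11 interneuron markers rose. Among the vesicle genes outside the rule, 4 of 54 rose (background 6.23%) and 4 fell (background 5.4%) in CA1. Slc32a1, the vesicular GABA transporter and itself an interneuron marker, rose by 1.35, and the vesicular zinc transporter Slc30a3 fell by 0.92 on the log2 scale. The part of these cell types in the members' changes was not tested. The mean of the 46 brighter members overlapped between the genotypes, at 7.66 to 8.04 in rTg4510 arrays, 7.76 to 7.94 in tTA arrays and 7.93 to 8.02 in DN arrays of CA1.

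Against DN mice, rTg4510 mice combine both transgenes. In CA1 10 members were higher (background 12.2%) and 10 were lower (background 12.5%), 20 in all, or 28.2% of members at a background of 24.7%. Sytl2 was 3.16 times lower (−1.66 ± 0.23), Syt17 2.66 times lower (−1.41 ± 0.17) and Stx6 1.88 times lower, and Vamp8 was 2.76 times, Stxbp3 2.38 times and Rab3b 2.25 times higher. Unc13b, Rab3c, Syt12, Syt7, Stx1a, Syt5 and Vamp4 were lower by 0.35 to 0.75, and Syngr2, Rab31, Syt2, Vamp5, Rab32, Vamp7 and Rab34 were higher by 0.35 to 0.68. Markers moved in this comparison too, with 9 of 9 microglia (7.08 to 8.13 in rTg4510 and 5.36 to 5.86 in DN arrays), 7 of 7 astrocyte (9.57 to 10.19 and 8.03 to 8.53), 6 of 6 oligodendrocyte (7.77 to 8.57 and 6.28 to 7.04) and 8 of 11 interneuron markers (7.80 to 8.59 and 7.20 to 7.53) higher and 3 of 3 CA1 pyramidal markers (6.73 to 8.22 and 9.29 to 9.57) lower in rTg4510 mice, and their part in the members' changes was not tested. The calls of Rab34, Stx1a, Syt2, Syt7, Syt12 and Vamp7 in CA1 were each lost in 10 or more alternative fits. In DG 4 were higher (Rab3b, Rab3c, Rab31 and Rab3il1, background 4.59%) and 5 were lower (background 5.24%), 9 in all, or 12.7% of members at a background of 9.83%. The 5 were Syn3, Stx6 and the 3 genes that were high in DG of DN mice. The calls of Rab31 and Rab3il1 in DG were lost in 12 of 24 and 11 of 23 alternative fits. Those of Rab3c, Rab3b and Stx6 were lost in 5 of 24, 1 of 23 and 1 of 24. In DG 6 of 9 microglia markers (6.64 to 6.99 in rTg4510 and 5.13 to 5.71 in DN arrays) and 6 of 7 astrocyte markers were higher in rTg4510 mice. Of those 3 genes, Stxbp6 read 6.64 to 7.13 in rTg4510 mice, against 8.01 to 8.54 in DN mice (−1.35 ± 0.13). Syt10 read 4.75 to 5.37 in rTg4510 mice, against 6.19 to 6.92 in DN mice (−1.52 ± 0.20). Syt17 read 4.78 to 5.88 in rTg4510 mice, against 6.21 to 7.12 in DN mice (−1.36 ± 0.20). None of the 3 overlapped between these genotypes. In CA3 0 members were called by limma, at a background of 3.36% (2.14% higher and 1.22% lower). By the unadjusted p 13 were below 0.05, and the share of all genes at that looser threshold is not given here. These comparisons share the DN arrays with tTA against DN.

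Whether a response itself differed between subfields was tested with the arrays of a mouse as a block. For rTg4510 against tTA, 1 member differed between CA1 and CA3 (background 4.31%), 3 between CA1 and DG (background 6.14%) and 0 between CA3 and DG (background 0.0169%). Between CA3 and DG 12 members had an unadjusted p below 0.05, a looser threshold at which the share of all genes is not given here. The response of Syngr2 was 0.49 in CA1 and −0.40 in CA3, neither called on its own, and the call was lost in 8 of 21 alternative fits. Between CA1 and DG, the response was −0.63 and 0.19 for Syn3, −0.44 and 0.54 for Syt13, and 0.62 and −0.47 for Vamp8, so that each had opposite signs in the 2 layers, with only the CA1 difference of Syn3 called on its own. The call of Vamp8 was lost in 15 of 22 alternative fits, that of Syn3 in 3 of 21 and that of Syt13 without tTA mouse4592. For tTA against DN, 2 members differed between CA1 and CA3 (background 0.762%), 1 between CA1 and DG (background 1.84%) and 2 between CA3 and DG (background 1.43%). Syt17 fell in CA1 (−1.65) and DG (−1.32), while the CA3 value was −0.23. Its response differed from that of CA3 in CA1 in all 21 alternative fits, and in DG the call was lost in 8 of 21. Stxbp6 fell in DG (−1.37) and was 0.50 in CA3, where it was already dim in DN mice (mean 4.35). Syn3 rose in CA1 (0.47) and fell in DG (−0.86), and Rab32 was 0.11 in CA1 and fell in CA3 (−0.64), a difference whose call was lost in 15 of 21 alternative fits, among them those without any 1 of the DN mice. In CA3, Syt17 was already at 4.82, 4.78, 4.06, 3.96 and 3.71 in DN mice, a dim level.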

How the data were processed

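The authors deposited 1 table of RMA values on the log2 scale, per the labels from Affymetrix HT-MG-430A arrays hybridized with amplified, biotin-labeled cDNA. RMA corrects background, forces arrays onto 1 distribution and summarizes each probe set, so it hides a change common to all transcripts and compresses those of dim probe sets. The sources used here do not say which arrays were normalized as 1 set. The methods of the study mention anti-log values, whereas the table ran from 1.944 to 13.826, which in base 2 is at most 14522, below the 65535 of a 16-bit scanner. Values were used as deposited. With arrays, precision is limited by their number. Of 22716 probe sets, 90 controls were left out. Of the rest, 18003 had 1 symbol, 287 several (4 of these named a member and were left out) and 4336 stayed unnamed. The 71 members had 115 probe sets (42 members had 1, and at most 4), and all 71 Entrez IDs matched RefSeq with 0 symbols changed. Rims1, Unc13a, Sv2b and Snap23 were not analysed here.

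Groups came from the titles. Within each subfield, limma 3.58.1 (R 4.3.3) fitted the 3 genotypes with 1 shared spread. Subfields of DN mice and differences of responses were fitted over 9 groups and 49 arrays with the mouse as a random block, because titles identify each animal by its number. The within-mouse correlation was 0.117, and deviations of same-mouse arrays correlated at a median of 0.119 (47 pairs, −0.148 to 0.323, 27 above 0.1), against −0.00146 for different mice. P-values were adjusted by Benjamini-Hochberg over all 22626 probe sets, and the script was tested on simulated data. Of arrays within a group, 0 pairs were identical. Named with values were a fixed set of core genes and the called members (15 of largest difference where more were called), with every array shown for the 3 largest per comparison of rTg4510 with tTA, tTA with DN and DN subfields and for Snap25 and Syp. Every array of Syt1, Nsf and Napa was added after their values were seen. Members, gene lists and markers were chosen with earlier results of these data known. Alternatives covered any probe set, a filter on dim probe sets, quantile normalization, array weights, 2 genotypes alone, the methods' least significant difference test on log2 and anti-log values, an Actb 3-prime to 5-prime covariate, no or a fixed mouse block, and leaving out each array or mouse.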

Additional observations from a re-analysis of the deposited data

Results flagged for a closer look

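An array lay far from the rest of its group in 11 of 162 sets of values examined (17 members given in every array and the mean of the members, in 9 groups), and chance flags about 1 in 20. In CA1 of DN mice, mouse4866 had the lowest Stxbp6 (3.46, next 4.83) and the lowest Syt10 (3.45, next 4.26). Rab32 stood high in DG of rTg4510 mouse4535 (4.87, next 4.04), Sytl4 stood high in CA1 of tTA mouse4637 (5.89, next 4.56) and low in DG of tTA mouse4580 (4.22, next 4.76), Stxbp3 stood low in CA3 of tTA mouse4570 (6.52, next 7.81) and Snap25 stood low in DG of tTA mouse4592 (12.85, next 13.04). Napa stood low in DG of tTA mouse4592 (5.45, next 6.34), in DG of rTg4510 mouse4549 (6.55, next 6.89) and in both CA3 (6.84, next 7.05) and DG (7.02, next 7.33) of DN mouse4886.

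The response of 9 member and subfield pairs differed between subfields by the test of the difference itself. For rTg4510 against tTA these were Syngr2 (0.89, CA1 minus CA3, adjusted p = 0.0327), Syn3 (−0.81, CA1 minus DG, adjusted p = 0.0138), Syt13 (−0.98, CA1 minus DG, adjusted p = 0.0192) and Vamp8 (1.07, CA1 minus DG, adjusted p = 0.0439). For tTA against DN they were Syt17 (−1.43, CA1 minus CA3, adjusted p = 0.00301, and 1.10, CA3 minus DG, adjusted p = 0.0322), Rab32 (0.73, CA1 minus CA3, adjusted p = 0.0445), Syn3 (1.33, CA1 minus DG, adjusted p = 3.96e-05) and Stxbp6 (1.85, CA3 minus DG, adjusted p = 0.000224).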

How the results depend on the processing

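Over all called members, the alternatives (other than any probe set) gave 3207 values that stayed past the threshold and 435 that lost it, and no sign changed. The Actb covariate ended the calls of Syt1 in all 3 subfields of tTA mice. The number of members called for rTg4510 against tTA in CA1 was 2 with the 2 genotypes alone, 11 with any probe set, 4 with array weights and 3 with the methods' test on log2 or anti-log values. It was 1 with any probe set and 2 without dim probe sets in CA3, and 0 with the 2 genotypes alone, 2 with any probe set or array weights and 5 without dim probe sets in DG. For tTA against DN it was 4 in CA1, 3 in CA3 and 7 in DG with the Actb covariate, and 10 in CA3 with the 2 genotypes alone or array weights. For rTg4510 against DN it was 13 in CA1 with the anti-log test, 4 with the covariate and 14 with array weights in DG, and 1 in CA3 with the 2 genotypes alone, any probe set or without dim probe sets and 2 with array weights. CA1 against CA3 of DN mice gave 34 with array weights. For responses to tau, CA1 minus CA3 gave 3 with any probe set and 0 with array weights, without dim probe sets or without the mouse block, and CA1 minus DG gave 5 with any probe set. For responses to tTA, CA1 minus CA3 gave 0 without dim probe sets and 1 with quantile normalization, a fixed mouse block or no block, CA1 minus DG gave 2 with array weights, and CA3 minus DG gave 1 without dim probe sets or without the block. The mouse block moved no other count by over 1.5 times. Leaving out 1 array gave 4 to 10 members for rTg4510 against tTA in CA1 (4 without rTg4510 mouse4666 or tTA mouse4580, mouse4592 or mouse4637), 0 to 1 in CA3 (1 without rTg4510 mouse4549 or mouse4621 or tTA mouse4580) and 0 to 5 in DG (0 without rTg4510 mouse4535 or tTA mouse4637, 2 without rTg4510 mouse4621, tTA mouse4592 or mouse4626 or DN mouse4825, 4 without tTA mouse4570 and 5 without rTg4510 mouse4549). For tTA against DN it gave 12 to 18 in CA1, 2 to 10 in CA3 (2 without tTA mouse4592 or DN mouse4797, 3 without DN mouse4825 or mouse4866 and 10 without rTg4510 mouse4549) and 11 to 18 in DG. For rTg4510 against DN it gave 12 to 22 in CA1 (12 without rTg4510 mouse4666), 0 to 2 in CA3 (2 without rTg4510 mouse4653, 1 without rTg4510 mouse4666 or tTA mouse4637) and 6 to 12 in DG. DN subfields gave 16 to 24 (CA1 against CA3), 25 to 29 (CA1 against DG) and 26 to 32 (CA3 against DG). Leaving out 1 mouse gave 0 to 2 for the tau response in CA1 minus CA3 (0 without rTg4510 mouse4535, mouse4549 or mouse4666 or tTA mouse4592 or mouse4637, 2 without rTg4510 mouse4653), 1 to 6 in CA1 minus DG (6 without rTg4510 mouse4549 or mouse4600, 1 without tTA mouse4626) and 0 to 0 in CA3 minus DG. For the tTA response it gave 1 to 2 in CA1 minus CA3 (1 without rTg4510 mouse4549 or mouse4621, tTA mouse4570, mouse4580, mouse4592 or mouse4637, or any of the 6 DN mice), 1 to 2 in CA1 minus DG (2 without rTg4510 mouse4549 or mouse4653, tTA mouse4580 or mouse4592, or DN mouse4806 or mouse4886) and 1 to 4 in CA3 minus DG (4 without tTA mouse4580, 1 without tTA mouse4570, mouse4592 or mouse4637 or DN mouse4825 or mouse4866). The cause of these moves was not tested. The arrays number 5 or 6 a group, dim members carry little signal over background, and the DN mice, numbered apart, may differ in more than genotype.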
